A study of Mus musculus with 8 samples.

Results

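Interferon-stimulated genes were examined in bulk RNA-seq of tibialis anterior (TA) muscle from dystrophic *mdx5cv* and wild type (WT) mice. The 37 members were taken by symbol, and all 37 were found in the table of 55401 genes. The samples were 4 WT and 4 *mdx5cv* whole TA muscles, all from male C57/Bl6 mice that were 6 mo old, so that strain, sex and age were shared and the *Dmd* mutation of *mdx5cv*, a mouse model of Duchenne muscular dystrophy (DMD), was the difference. The labels name no treatment, and they number the muscles 1 to 4 in each group without saying that each came from a separate mouse, so the p-values measure the spread between these muscles. Whole muscle holds fibers, connective tissue, vessels and immune cells together, and in such samples fewer cells of a type and less RNA per cell cannot be told apart.

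Interferons are secreted proteins that warn cells of infection or damage. Type I interferons act through the receptor chains IFNAR1 and IFNAR2, and interferon gamma acts through IFNGR1 and IFNGR2. The receptors activate JAK kinases, which phosphorylate STAT factors. A complex that holds STAT2 and IRF9 binds the interferon-stimulated response element (ISRE) near target genes, whereas signalling from interferon gamma acts through the gamma-activated site (GAS). The target genes encode proteins that sense foreign nucleic acid, block viruses, mark intracellular compartments that hold microbes, and feed back on the pathway. In dystrophic muscle, fibers break down and regenerate repeatedly and immune cells enter the tissue.

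The promoters of the members were read first, because they can hold the sequences that the pathway's factors bind. The choice of members used no sequence, but it took genes known to respond to interferon. Their share of matches is therefore not independent of that choice. RefSeq windows on GRCm38.p6 that run from 250 bases before to 50 bases after the start site were found for 30 of the 37 members. The ISRE core, searched on both strands as GAAANNGAAA (N is any base), was in 18 of these 30 promoters (60%), against 1079 of the 27025 genes with a window (3.99%). The GAS core, TTCNNNGAA, which is its own reverse complement, was in 11 of the 30 (36.7%), against 2582 of all genes (9.55%). In all, 27 ISRE matches and 14 GAS matches were counted, 2 of the GAS matches overlapped an ISRE match, and 7 members had both. The surroundings of ISRE matches are shown for 8 members that span the families described here, 5′ to 3′ on the strand of the gene, with each match or its reverse complement in capitals.
*Ifit1*: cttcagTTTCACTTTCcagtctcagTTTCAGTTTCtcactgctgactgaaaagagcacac
*Isg15*: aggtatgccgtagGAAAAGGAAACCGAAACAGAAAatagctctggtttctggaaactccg
*Oas1a*: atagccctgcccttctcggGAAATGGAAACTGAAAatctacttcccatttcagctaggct
*Oas3*: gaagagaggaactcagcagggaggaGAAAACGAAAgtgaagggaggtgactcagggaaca
*Rsad2*: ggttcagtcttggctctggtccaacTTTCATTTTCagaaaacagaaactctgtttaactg
*Gbp2*: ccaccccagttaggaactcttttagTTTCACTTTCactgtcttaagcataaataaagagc
*Igtp*: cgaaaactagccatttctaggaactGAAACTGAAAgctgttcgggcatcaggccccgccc
*Ifih1*: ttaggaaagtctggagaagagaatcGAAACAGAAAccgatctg
These stretches lie at chr19:34640779-34640838 (plus strand) for *Ifit1*, chr4:156200850-156200909 (minus strand) for *Isg15*, chr5:120907505-120907564 (minus strand) for *Oas1a*, chr5:120777700-120777759 (minus strand) for *Oas3*, chr12:26456538-26456597 (minus strand) for *Rsad2*, chr3:142620579-142620638 (plus strand) for *Gbp2*, chr11:58199497-58199556 (plus strand) for *Igtp* and chr2:62646206-62646248 (minus strand) for *Ifih1*. *Isg15* held 3 overlapping matches in a row, *Oas1a* held 2 that overlapped, and *Ifit1* held 2 that stood apart. The matches began between -222 and 32 relative to the start site, and 14 members had a match that began before the start site. The whole window of *Oas3*, at chr5:120777610-120777909 (minus strand), is shown because this gene had the largest fold change of the members.
*Oas3*: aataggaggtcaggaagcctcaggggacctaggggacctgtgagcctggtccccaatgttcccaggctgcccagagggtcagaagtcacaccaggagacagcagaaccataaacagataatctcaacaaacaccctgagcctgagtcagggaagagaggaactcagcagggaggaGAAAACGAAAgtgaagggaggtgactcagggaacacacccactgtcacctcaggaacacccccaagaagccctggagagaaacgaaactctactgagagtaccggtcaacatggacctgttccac
A match is a description of letters and was not shown to be bound in these muscles. Of the 17 tested members with an ISRE match, 8 passed the threshold used below and their median log2 fold change was 0.99. Of the 12 tested members without one in this window, 7 passed and the median was 1.20, so the members with a match did not have the higher median.

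**Figure D1:**
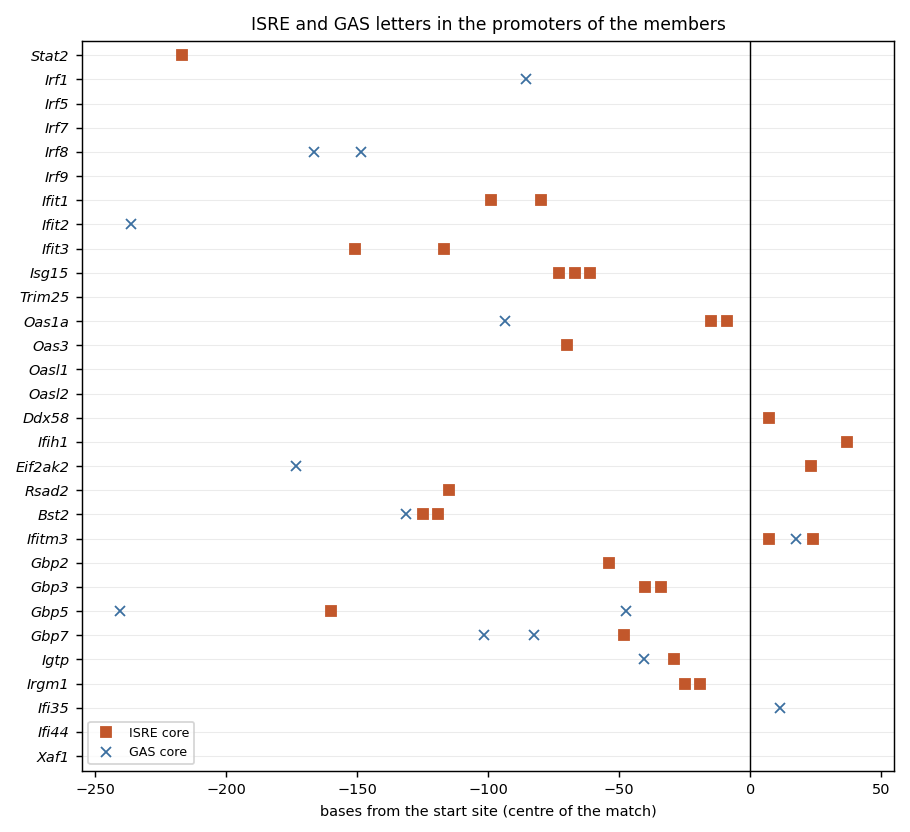
Positions of the ISRE core (squares) and the GAS core (crosses) in the RefSeq promoter windows of 30 members, in bases from the start site (x axis, centre of each match; vertical line at 0). Of the 30 members, 18 have at least 1 ISRE match and 11 have at least 1 GAS match.

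The measurement was the normalized count, which is the number of reads of a gene divided by a size factor of the muscle. Between 13862559 and 14921057 reads were recovered per WT muscle and between 13175524 and 14502624 per *mdx5cv* muscle. *Dmd* itself was at 6169 to 8155 normalized counts in WT and at 3461 to 4400 in *mdx5cv*. All 8 skeletal muscle fiber markers, among them *Myh4*, *Acta1* and *Ckm*, were abundant in every muscle, as the tissue label states. Between groups 3 of the 8 were lower by adjusted p, each under the fold threshold, and 5 overlapped, with a median log2 fold change of -0.15. *Ckm*, which had the largest difference of the 8, was at 170803 to 213844 in WT and 78311 to 130541 in *mdx5cv*, and *Myh4* was at 321431 to 516258 in WT and 299501 to 478937 in *mdx5cv*. The first principal component of all genes held 73.9% of the variance and separated the groups, and *mdx5cv* replicate 4 lay at 79.1 on it against 39.6 to 53.9 for the other *mdx5cv* muscles. Counts of members are therefore also given without this muscle and without replicate 2, which stood apart in the members' own values.

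Interferon-stimulated genes were higher in *mdx5cv* muscle across most of their families. With limma on log2(normalized count + 1), 36 members reached the minimum average of 10 normalized counts and were tested, and *Isg15* did not. At an adjusted p under 0.05 and a log2 fold change of at least 1, 21 of the 36 members rose and none fell, whereas 10.3% of all 13677 genes tested passed the same threshold upward and 3.27% downward. Of the 21, 7 had a WT mean under 10 and entered the test only through *mdx5cv*, the group where they were high, namely *Oas1a*, *Oas3*, *Oasl1*, *Dhx58*, *Mx1*, *Mx2* and *Ifi44* (4.99% of all genes tested entered in this way). Over all genes, 487 of the 682 that entered in this way rose. Among the other 29 tested members 14 rose, against 927 of the 12995 genes with a WT mean of 10 or more. *Irf5* was the single member lower at an unadjusted p under 0.05, and edgeR and DESeq2 on the recovered reads called no member lower either. The median log2 fold change was 1.09 over the members and 0.00 over all genes. With the adjusted p alone, 28 members were higher and 1 was lower, against 20.9% and 20.1% of all genes. In 27 of the 36 members every *mdx5cv* muscle was above every WT muscle, which held for 20.3% of all genes. The number that rose was 17 without *mdx5cv* replicate 2, 20 without replicate 4 and 29 when the muscles were scaled to equal totals, a scaling that also moved the median of all genes to 0.36, the members' median to 1.45 and the share of upward calls among all called genes from 76.0% to 91.5%.

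**Figure D2:**
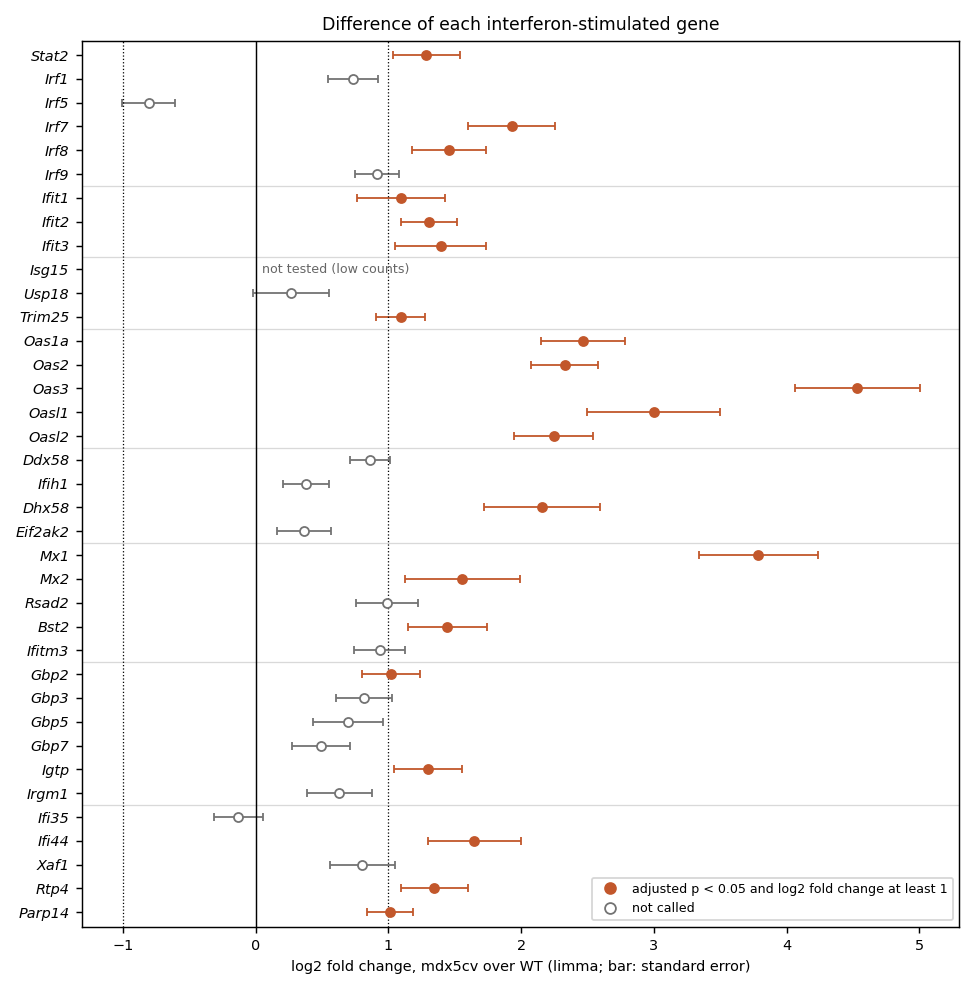
Log2 fold change of each member, *mdx5cv* over WT, from limma (points) with its standard error (bars), in the order of the families; dotted lines mark a log2 fold change of 1 and of -1. Filled points are the 21 members past the threshold, and *Oas3* (4.53) and *Mx1* (3.79) lie farthest to the right while *Irf5* (-0.81) lies to the left of 0.

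Among the factors that carry the signal, 3 of 6 rose, against 10.3% of all genes tested, and the others were split. Values are normalized counts in the order of the replicate numbers, and log2 fold changes are given ± SE with n = 4 muscles in each group. *Irf7* (chr7:141262706-141266481, GENCODE M21 on GRCm38), which amplifies the type I interferon response, was at 25.2, 16.5, 26.5 and 27.5 in WT and 74.1, 180.2, 49.5 and 109 in *mdx5cv* (log2 fold change 1.93 ± 0.33, limma adjusted p = 0.00048). Every *mdx5cv* muscle was above every WT muscle, and the *mdx5cv* muscles differed more among themselves than the WT muscles did. *Stat2*, part of the ISRE-binding complex, was at 72.2, 37.3, 54.2 and 86.9 in WT and 120.4, 215, 122 and 149 in *mdx5cv* (log2 fold change 1.29 ± 0.25, limma adjusted p = 0.00133). *Irf8*, a factor of myeloid cell development, was at 36.7, 60.3, 55.3 and 62.5 in WT and 128, 177, 82.8 and 239.7 in *mdx5cv* (log2 fold change 1.45 ± 0.28, limma adjusted p = 0.00117). Both were without overlap between the groups, with *Irf8* highest in replicate 4 and *Stat2* highest in replicate 2. *Irf9*, the DNA-binding part of the complex, was higher at 64.1 to 76.3 in WT and 105 to 171 in *mdx5cv* but below the fold threshold (log2 fold change 0.91 ± 0.17, limma adjusted p = 0.000859). *Irf1*, an early target of interferon gamma, was likewise higher at 93.2 to 115 in WT and 133 to 259 in *mdx5cv* (log2 fold change 0.73 ± 0.19, limma adjusted p = 0.00778). *Irf9* passed the fold threshold without *mdx5cv* replicate 1, at 1.02.

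*Irf5* (chr6:29526625-29541871), a factor that acts downstream of Toll-like receptors, went the other way. Its normalized counts were 219, 313, 348 and 275 in WT and 122, 175, 135 and 241 in *mdx5cv* (log2 fold change -0.81 ± 0.20, limma adjusted p = 0.00633). Replicates 1, 2 and 3 of *mdx5cv* were below every WT muscle and replicate 4 overlapped the WT range. Under equal totals the log2 fold change was -0.45 and no longer passed (limma adjusted p = 0.126). In GENCODE M21, 411 of its exon bases (14.1%) overlap *Tnpo3* on the opposite strand, and whether the counting used strand is not stated in the sources used here, so reads of *Tnpo3* may be included.

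All 5 members of the oligoadenylate synthetase (OAS) family rose without overlap between groups, with a median log2 fold change of 2.47. Over all genes tested 10.3% rose and 20.3% were above WT without overlap. *Oas1a*, *Oas3* and *Oasl1* passed the filter only through their *mdx5cv* values, so the count and the median rest in part on how the genes were filtered, and *Oas2* and *Oasl2* passed it in WT as well. The active enzymes of this family make 2′-5′-linked oligoadenylates on double-stranded RNA, which activate RNase L. Within the family, the OAS-like proteins OASL1 and OASL2 form a branch of their own. *Oas3* (chr5:120753098-120777661) was at 0, 1.10, 1.11 and 2.12 in WT and 38.9, 68.9, 21.6 and 61.5 in *mdx5cv* (log2 fold change 4.53 ± 0.47, limma adjusted p = 1.23e-05). Its 4 WT muscles held 4 reads in all and its 4 *mdx5cv* muscles held 216, so that each WT muscle was under the 3 reads that a count of 0 allows and every *mdx5cv* muscle was above them. The size of such a fold change depends on the pseudocount, and over 16 alternative settings it ran from 2.30 to 5.86, always past the threshold. *Oas1a*, counted at 5.73, 4.39, 3.32 and 5.30 in WT and 23.2, 43.4, 24.3 and 32.8 in *mdx5cv*, rose in the same way (log2 fold change 2.47 ± 0.32, limma adjusted p = 6.71e-05). *Oas2* was at 18.3, 14.3, 17.7 and 21.2 in WT and 75.0, 145, 63.0 and 108 in *mdx5cv* (log2 fold change 2.33 ± 0.25, limma adjusted p = 1.76e-05). The *Oas2* values hardly varied among WT muscles and were highest in *mdx5cv* replicate 2. *Oasl1* was at 1.15, 1.10, 2.21 and 8.47 in WT and 27.8, 37.7, 15.3 and 29.6 in *mdx5cv* (log2 fold change 2.997 ± 0.50, limma adjusted p = 0.00044), with 1 WT muscle above the rest. *Oasl2* was at 24.1, 19.7, 23.2 and 35.0 in WT and 73.2, 199.99, 88.2 and 170.2 in *mdx5cv* (log2 fold change 2.24 ± 0.30, limma adjusted p = 8.60e-05). *Oas1a* belongs to a cluster of near-identical paralogs and its reads may be divided among them.

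The effector proteins that act on viruses at membranes and in the cytoplasm rose in 3 of 5 cases, against 10.3% of all genes tested. All 5 were higher by adjusted p (20.9% of all genes were) and without overlap (20.3% were above WT in this way). *Mx1* and *Mx2* had a WT mean under 10 and entered the test only through *mdx5cv*. Among the other 3 effectors 1 rose, against 927 of the 12995 genes with a WT mean of 10 or more. *Mx1* (chr16:97447035-97462907), which encodes a dynamin-like GTPase against influenza viruses, was at 2.29, 2.19, 1.11 and 3.18 in WT and 74.1, 55.7, 16.2 and 44.7 in *mdx5cv* (log2 fold change 3.79 ± 0.45, limma adjusted p = 3.34e-05). WT muscles held 8 reads in all against 213 in *mdx5cv*, and over the 16 alternatives the log2 fold change ran from 2.12 to 4.44. Most inbred laboratory strains, C57BL/6 among them, carry an *Mx1* allele that gives no working protein, so the count measures transcript only. *Mx1* was highest in *mdx5cv* replicate 1 and lowest in replicate 3. *Mx2* was at 10.3, 8.78, 2.21 and 3.18 in WT and 21.3, 14.2, 15.3 and 19.2 in *mdx5cv* (log2 fold change 1.56 ± 0.44, limma adjusted p = 0.012). It lost the call with a pseudocount of 10 (log2 fold change 0.80), and *mdx5cv* replicate 2, which was the highest muscle for most members, was the lowest *mdx5cv* muscle here. *Bst2*, which encodes tetherin, a protein that holds budding virus at the cell surface, was at 35.5, 17.6, 29.9 and 16.9 in WT and 53.7, 112, 51.3 and 62.3 in *mdx5cv* (log2 fold change 1.44 ± 0.30, limma adjusted p = 0.00181). *Rsad2*, which encodes viperin, was at 43.9 to 68.8 in WT and 75.6 to 165 in *mdx5cv* and missed the fold threshold by little (log2 fold change 0.99 ± 0.23, limma adjusted p = 0.0045). *Ifitm3*, a membrane protein that blocks viral fusion, was at 77.9 to 148 in WT and 164 to 242 in *mdx5cv* (log2 fold change 0.93 ± 0.19, limma adjusted p = 0.00186). *Rsad2* passed in 8 of the 16 alternatives, with 1.09 and 1.05 without WT replicates 1 and 4 and with 1.18 and 1.08 without *mdx5cv* replicates 3 and 4. *Ifitm3* passed without WT replicate 4 (1.09) and without *mdx5cv* replicate 1 (1.04).

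All 3 interferon-induced tetratricopeptide (IFIT) genes rose, against 10.3% of all genes tested. The products of the IFIT genes bind foreign RNA ends, and the genes sit in a cluster on chromosome 19. *Ifit2* was at 40.1, 46.1, 34.3 and 42.4 in WT and 96.3, 148, 71.1 and 105 in *mdx5cv* (log2 fold change 1.31 ± 0.21, limma adjusted p = 0.000325). *Ifit3* was at 48.1, 38.4, 34.3 and 18.0 in WT and 88.9, 174, 54.9 and 69.5 in *mdx5cv* (log2 fold change 1.39 ± 0.34, limma adjusted p = 0.00577). *Ifit1* was at 27.5, 37.3, 33.2 and 13.8 in WT and 57.4, 96.2, 35.1 and 55.1 in *mdx5cv* (log2 fold change 1.10 ± 0.33, limma adjusted p = 0.0175). The groups were separate for *Ifit2* and *Ifit3*, whereas for *Ifit1* the lowest *mdx5cv* muscle, 35.1, was under the highest WT muscle, 37.3. *Ifit1* lost its call without *mdx5cv* replicate 2 (log2 fold change 0.85), without WT replicate 4 (0.80) and with a pseudocount of 10 (0.88). *Ifit3* has a near-identical neighbour, *Ifit3b*, which was at 36.0 to 61.4 in WT and 28.8 to 79.2 in *mdx5cv* and overlapped between groups (log2 fold change -0.09 ± 0.29, limma adjusted p = 0.83), and reads may be divided between the copies.

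The ISG15 system, in which the ubiquitin-like protein ISG15 is attached to other proteins, was uneven. *Isg15* had a mean below the filter, with 6.88, 2.19, 6.63 and 1.06 in WT and 14.8, 17.9, 8.10 and 16.0 in *mdx5cv*. Every *mdx5cv* muscle was above every WT muscle, and in the fit without a filter its log2 fold change was 1.72 ± 0.50 (SE, limma adjusted p = 0.0171). *Trim25*, a ligase for ubiquitin and ISG15 that activates RIG-I, was at 115, 71.3, 105 and 131 in WT and 219, 232, 177 and 265 in *mdx5cv* (log2 fold change 1.09 ± 0.18, limma adjusted p = 0.000475), and without WT replicate 2 its log2 fold change was 0.92, under the threshold. *Usp18*, which removes ISG15 and dampens the type I receptor, was at 26.4, 35.1, 31.0 and 24.4 in WT and 43.5, 53.8, 18.9 and 33.6 in *mdx5cv* and did not pass (log2 fold change 0.27 ± 0.29, limma adjusted p = 0.487). Its lowest value of all 8 was in *mdx5cv* replicate 3 and its highest in *mdx5cv* replicate 2.

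Of the RNA sensors, namely the RIG-I-like receptors and the kinase PKR, 1 of 4 rose, against 10.3% of all genes tested. The median log2 fold change was 0.62. The 1 that rose, *Dhx58*, had a WT mean under 10 and entered the test only through *mdx5cv*. Of the other 3 sensors 0 rose, against 927 of the 12995 genes with a WT mean of 10 or more. *Dhx58*, which encodes LGP2, a regulator of the other receptors, was at 9.17, 2.19, 5.53 and 12.7 in WT and 35.2, 37.7, 18.0 and 42.4 in *mdx5cv* (log2 fold change 2.16 ± 0.44, limma adjusted p = 0.00166). *Ddx58*, which encodes RIG-I, was at 71.9 to 78.4 in WT and 107 to 166 in *mdx5cv*, without overlap and with a change under the fold threshold (log2 fold change 0.86 ± 0.15, limma adjusted p = 0.000586). *Ifih1*, which encodes MDA5, was at 90.0 to 151 in WT and 124 to 163 in *mdx5cv* (log2 fold change 0.38 ± 0.17, limma adjusted p = 0.0954). *Eif2ak2*, which encodes PKR, a kinase that halts translation on double-stranded RNA, was at 57.3 to 90.7 in WT and 67.5 to 121 in *mdx5cv* (log2 fold change 0.36 ± 0.20, limma adjusted p = 0.17). For *Ifih1* and *Eif2ak2* the groups overlapped and neither passed by adjusted p. *Ifih1* passed by adjusted p without WT replicate 2 (log2 fold change 0.52) and *Eif2ak2* without *mdx5cv* replicate 3 (0.54).

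Among the interferon-inducible GTPases, as in the OAS and IFIT families, *mdx5cv* replicate 2 was the highest muscle for every member. These proteins, the guanylate-binding proteins (GBP) and the immunity-related GTPases (IRG), act on vacuoles that hold microbes and are classical targets of interferon gamma. Of the 6 members, 2 rose, against 10.3% of all genes tested, and 3 were higher by adjusted p, against 20.9%. The median log2 fold change was 0.76. *Igtp* (chr11:58199556-58207591) was at 88.2, 101, 114 and 82.6 in WT and 200.1, 454, 224 and 155 in *mdx5cv* (log2 fold change 1.30 ± 0.26, limma adjusted p = 0.00143). *Gbp2* was at 112, 103, 87.3 and 66.7 in WT and 158, 281, 133 and 196 in *mdx5cv* (log2 fold change 1.02 ± 0.22, limma adjusted p = 0.00267). Both were without overlap, and both lost the call when *mdx5cv* replicate 2 was left out (log2 fold change 0.99 for *Igtp* and 0.82 for *Gbp2*, the lowest values over all alternatives). *Gbp2* lost it as well without *mdx5cv* replicate 4 (0.99) and without WT replicate 4 (0.87). *Gbp3* was at 55.1 to 65.3 in WT and 74.7 to 169.8 in *mdx5cv* (log2 fold change 0.82 ± 0.21, limma adjusted p = 0.00843). *Gbp5* was at 64.2, 43.9, 53.1 and 42.4 in WT and 59.3, 152, 63.0 and 79.1 in *mdx5cv* (log2 fold change 0.70 ± 0.26, limma adjusted p = 0.0505). In *Gbp5*, *mdx5cv* replicate 2 was far above the other 7 muscles, and replicates 1 and 3 lay within the WT range. *Gbp7* was at 181, 104, 149 and 139.8 in WT and 169, 318, 166 and 175 in *mdx5cv* (log2 fold change 0.49 ± 0.22, limma adjusted p = 0.0848). *Irgm1* was at 167, 194, 142 and 99.6 in WT and 178, 389.6, 197 and 194 in *mdx5cv* (log2 fold change 0.63 ± 0.25, limma adjusted p = 0.0563). For *Gbp7* and *Irgm1* replicates 1, 3 and 4 of *mdx5cv* fell within or near the WT range and replicate 2 was far above it. With 1 muscle left out, *Gbp5* passed by adjusted p without WT replicate 1 (0.81) or *mdx5cv* replicates 1 (0.85) or 3 (0.82), and *Irgm1* without WT replicate 2 (0.77) or *mdx5cv* replicate 1 (0.75). *Irgm1* also passed by adjusted p with the replicate number as a block (limma adjusted p = 0.00983), without the filter (0.0439) and with DESeq2 (0.0442), and *Gbp5* without the filter (0.0492), with edgeR (0.041) and with DESeq2 (0.0369). Scaled to equal totals, *Gbp5* (log2 fold change 1.05), *Gbp7* (0.85) and *Irgm1* (0.99) all passed by adjusted p. In GENCODE M21, 637 exon bases of *Gbp7* (11.4%) and 162 of *Igtp* (8.01%) overlap another gene on the same strand, and members of both families are similar enough in sequence to share reads.

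Of the 5 remaining members 3 rose, against 10.3% of all genes tested. Of these 3, *Ifi44* had a WT mean under 10 and entered the test only through *mdx5cv*. Among the other 4 remaining members 2 rose, against 927 of the 12995 genes with a WT mean of 10 or more. *Ifi44*, an interferon-induced cytoplasmic protein, was at 9.17, 9.87, 12.2 and 6.36 in WT and 25.9, 58.5, 18.0 and 32.8 in *mdx5cv* (log2 fold change 1.65 ± 0.35, limma adjusted p = 0.00234). *Rtp4*, a receptor-transporting protein, was at 18.3, 15.4, 16.6 and 21.2 in WT and 35.2, 67.9, 35.1 and 55.9 in *mdx5cv* (log2 fold change 1.34 ± 0.25, limma adjusted p = 0.00102). *Parp14*, a mono-ADP-ribosyltransferase, was at 169.6, 223, 210.1 and 201 in WT and 342, 566, 309.8 and 447 in *mdx5cv* (log2 fold change 1.01 ± 0.17, limma adjusted p = 0.000497). Each was without overlap, and *Parp14*, just past the fold threshold, lost its call in 5 of the 16 alternatives, among them those without WT replicate 1 (0.93), *mdx5cv* replicate 2 (0.85) and *mdx5cv* replicate 4 (0.97). *Xaf1*, which promotes apoptosis by opposing XIAP, was at 25.4 to 48.3 in WT and 54.7 to 95.3 in *mdx5cv* (log2 fold change 0.80 ± 0.24, limma adjusted p = 0.0185), and it no longer passed by adjusted p without WT replicate 3 (0.62) or *mdx5cv* replicate 2 (0.63). *Ifi35* was at 91.7, 86.7, 88.5 and 90.0 in WT and 81.5, 107, 90.0 and 55.9 in *mdx5cv* and did not differ detectably (log2 fold change -0.13 ± 0.18, limma adjusted p = 0.596), and its sign changed under equal totals and without *mdx5cv* replicate 4. Its WT values lay close together and its *mdx5cv* values lay on both sides of them. Of its exon bases, 290 (16.8%) overlap *Gm11626* on the opposite strand, and 296 of *Rtp4* (13.9%) overlap *Gm45338* on the same strand.

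**Figure D3:**
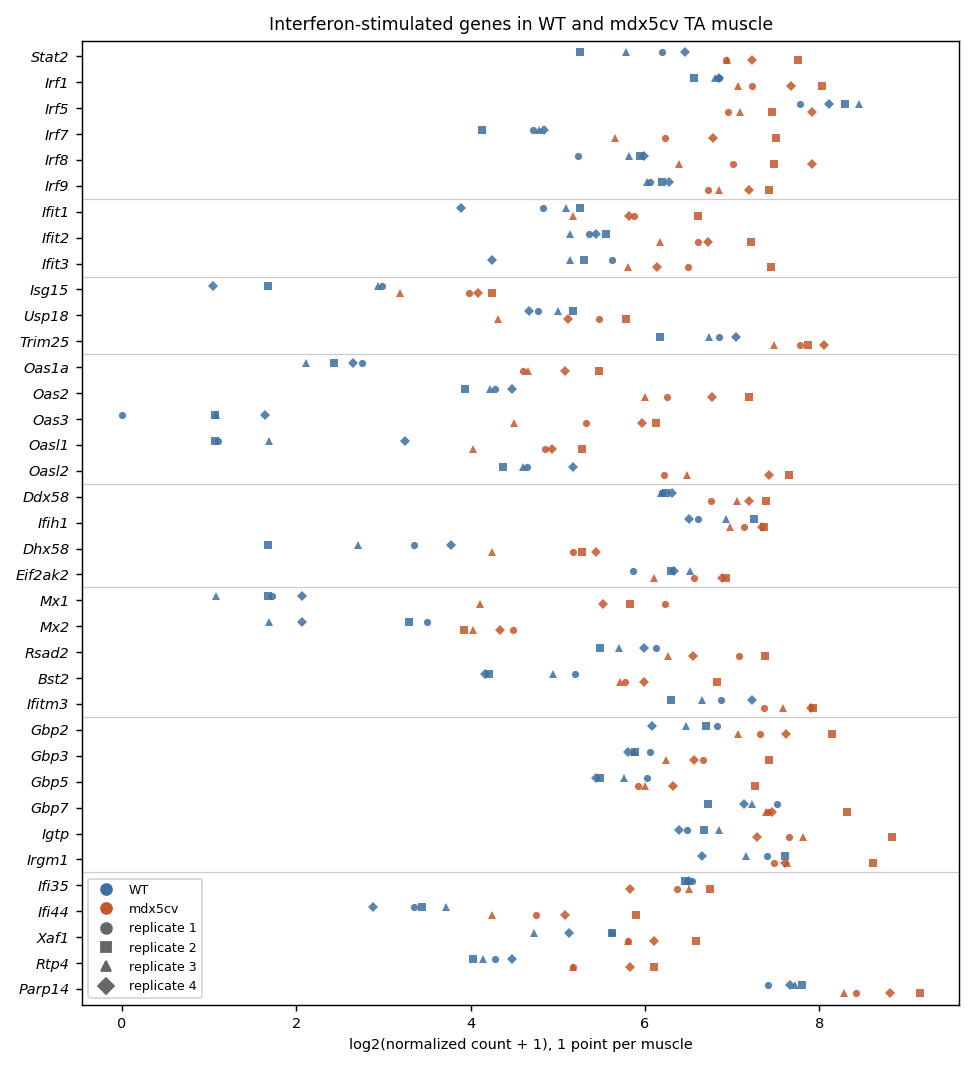
Each of the 37 members (rows, grouped by family) in the 8 muscles, as log2(normalized count + 1), with WT in blue, *mdx5cv* in orange and a marker shape for each replicate number. The squares of *mdx5cv* replicate 2 are the farthest right of the *mdx5cv* points in 31 of the 37 rows.

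Per kilobase of exon, the level of the members covered a wide range, and its order differed between groups. Levels per length, in normalized counts per kilobase, are given as mean ± SD (n = 4). *Ifitm3* led in WT, with 163 ± 43.8, followed by *Irf5* at 99.4 ± 19.0, *Ifi35* at 51.7 ± 1.25 and *Igtp* at 47.7 ± 6.89. *Ifi35* and *Igtp* did not differ beyond their spread. At the low end in WT were *Oas3* at 0.153 ± 0.122 and *Mx1* at 0.579 ± 0.224, both with at most 3 reads in every WT muscle, so that their order was not resolved. In *mdx5cv*, *Ifitm3* again led at 308 ± 56.0, ahead of *Igtp* at 128 ± 66.0, *Bst2* at 77.4 ± 31.7 and *Gbp2* at 76.4 ± 25.7, of which the last 3 did not differ beyond their spread. *Irf5* moved from rank 2 to rank 5 with 57.9 ± 18.3, and *Irf7* from rank 27 to rank 14 with 27.3 ± 15.05. The lowest mean in *mdx5cv* was that of *Mx2*, at 4.84 ± 0.922, which did not differ beyond its spread from *Ifi44* at 5.51 ± 2.86 or *Oas3* at 6.75 ± 3.05.

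Replicate 2 was the highest of the 4 *mdx5cv* muscles in 31 of the 37 members, whereas it was the highest in 23.7% of all genes tested. Replicate 3 was the lowest in 24 of the 37, against 23.3% of all genes. The 6 members that were not highest in replicate 2 were *Irf5*, *Irf8*, *Trim25* and *Dhx58*, highest in replicate 4, and *Mx1* and *Mx2*, highest in replicate 1. Against the mean of the other 3 *mdx5cv* muscles, replicate 2 was higher in 36 of the 37 members, by a median of 0.71 on the log2 scale. By family this median was 0.985 for the 3 IFIT genes, 0.982 for the 6 GTPases, 0.85 for the OAS family and 0.35 for the RNA sensors. The mean log2 level of the members was 5.06 to 5.21 in WT muscles, and 6.00 in *mdx5cv* replicate 3, 6.32 in replicate 1, 6.55 in replicate 4 and 6.98 in replicate 2. The lowest *mdx5cv* muscle was thus above the highest WT muscle, and the *mdx5cv* muscles were spread over a range that was wider than the range of WT.

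**Figure D4:**
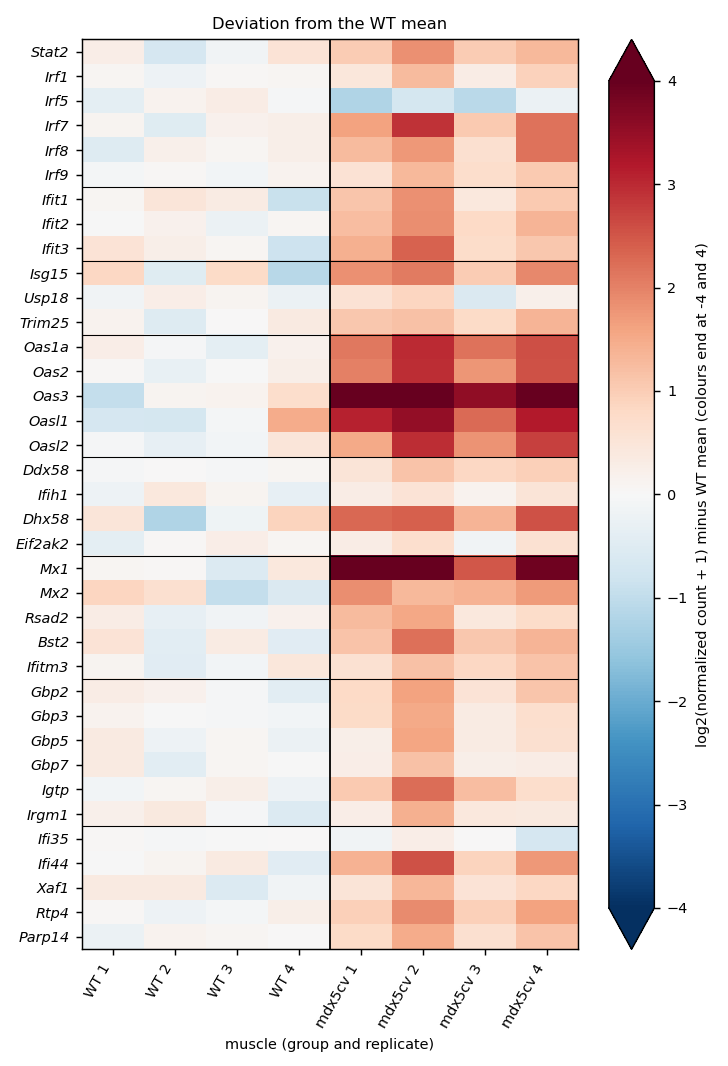
Deviation of each member (rows) in each muscle (columns) from its WT mean, on the log2(normalized count + 1) scale, with red above and blue below the WT mean and the colour scale ending 4 units to either side. The column of *mdx5cv* replicate 2 is the darkest in most rows and *Irf5* is the single row that is blue in all 4 *mdx5cv* columns.

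Genes that act before and beside the members in the pathway were read from 7 lists, with 99 genes in the table and 80 tested. Of these, 34 rose and none fell in limma (4 were lower at an unadjusted p under 0.05, edgeR called 0 lower and DESeq2, with values for 91, called 1, *Cxcl11*), with a median log2 fold change of 0.89. Over all genes tested, 10.3% rose and 3.27% fell by the same threshold. Of the 34, 7 had a WT mean under 10 and entered the test only through *mdx5cv*. Among the other 73 tested genes 27 rose, against 927 of all 12995 genes with a WT mean of 10 or more. The interferons themselves were near the detection limit. Of 9 ligand genes, 7 had no read in any muscle, *Ifnb1* among them. *Ifng* had 1 read, in *mdx5cv* replicate 3, and *Ifne* had 1 read, in *mdx5cv* replicate 1. A count of 0 allows up to 3 reads, or 2.40 to 3.44 normalized counts depending on the muscle, and this limit covers counting error only.

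In the list of receptor chains and the signalling proteins behind them, 1 of 9 tested genes passed the threshold, or 11.1%, near the 10.3% of all genes tested. By adjusted p alone 6 of the 9 were higher and 2 lower, against 20.9% and 20.1% of all genes. Without overlap 4 were above WT, against 20.3% of all genes, and 2 were below. *Il10rb*, a chain shared by the receptors of type III interferons and IL-10 family cytokines, rose, at 25.2, 49.4, 32.1 and 35.0 in WT and 91.7, 83.0, 70.2 and 137 in *mdx5cv* (log2 fold change 1.40 ± 0.24, limma adjusted p = 0.000491). *Ifnar1* was at 160.1 to 202 in WT and 240.4 to 390.0 in *mdx5cv* (log2 fold change 0.67 ± 0.16, limma adjusted p = 0.00475) and *Ifnar2* at 36.5 to 63.6 in WT and 59.4 to 139 in *mdx5cv* (0.98 ± 0.25, limma adjusted p = 0.00764). *Ifngr1* was at 190.2 to 265 in WT and 263 to 370.0 in *mdx5cv* (0.41 ± 0.14, limma adjusted p = 0.0323) and *Ifngr2* at 451 to 563 in WT and 452 to 516 in *mdx5cv* (-0.07 ± 0.11, limma adjusted p = 0.61). Of these 4 chains 3 were higher by adjusted p, each under the fold threshold, and *Ifngr2* did not pass. *Ifnar2* passed the fold threshold without WT replicate 2 (1.16), *mdx5cv* replicate 2 (1.04) or *mdx5cv* replicate 3 (1.16). It also passed with equal totals (1.33), with edgeR (1.035) and with DESeq2 (1.03). *Ifngr1* lost its adjusted p on leaving out replicate 1 of WT (0.33) or replicate 4 of either group (0.39 without that of WT, 0.30 without that of *mdx5cv*). *Jak2* was lower at 814 to 940.0 in WT and 439.5 to 704 in *mdx5cv*, without overlap and under the fold threshold (log2 fold change -0.74 ± 0.14, limma adjusted p = 0.000965).

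Of 13 tested genes for the sensing of nucleic acid upstream of interferon, both sensors and the proteins behind them, 8 rose. This was 61.5%, against 10.3% of all genes tested, and the median log2 fold change was 1.40. *Tlr7*, *Tlr8*, *Tlr9* and *Zbp1* had a WT mean under 10 and entered the test only through *mdx5cv*. Among the other 9 genes 4 rose, against 927 of all 12995 genes with a WT mean of 10 or more. *Tlr7*, an endosomal receptor for single-stranded RNA, was at 8.02, 12.1, 4.42 and 8.47 in WT and 107, 172, 61.2 and 214 in *mdx5cv* (log2 fold change 3.83 ± 0.37, limma adjusted p = 6.83e-06). *Tlr8* was at 5.73, 9.87, 7.74 and 6.36 in WT and 105, 157, 54.9 and 206 in *mdx5cv* (log2 fold change 3.83 ± 0.35, limma adjusted p = 5.17e-06). These receptors were high in every *mdx5cv* muscle and highest in replicate 4, not in replicate 2. *Zbp1*, a sensor of left-handed nucleic acid, was at 5.73, 4.39, 3.32 and 5.30 in WT and 28.7, 80.2, 29.7 and 52.7 in *mdx5cv* (log2 fold change 2.995 ± 0.35, limma adjusted p = 3.39e-05). *Tlr9*, a receptor for unmethylated DNA, was at 3.29 to 6.88 in WT and 17.1 to 62.3 in *mdx5cv* (log2 fold change 2.51 ± 0.38, limma adjusted p = 0.00023). *Zbp1*, an interferon-stimulated gene itself, was highest in replicate 2. The kinase gene *Tbk1* was higher under the fold threshold, at 115 to 135 in WT and 176 to 213 in *mdx5cv* (log2 fold change 0.61 ± 0.12, limma adjusted p = 0.00127). *Irf3*, which TBK1 phosphorylates, was at 151 to 224 in WT and 160.4 to 215 in *mdx5cv* (log2 fold change 0.00 ± 0.15, limma adjusted p = 0.996), with a sign that changed in 7 of 16 alternatives.

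Among 25 other tested interferon-stimulated genes, 10 rose (40%, against 10.3% of all genes tested), with a median log2 fold change of 0.73. *Ifi209*, *Cxcl10* and *Cxcl9* had a WT mean under 10 and entered the test only through *mdx5cv*. Among the other 22 genes 7 rose, against 927 of all 12995 genes with a WT mean of 10 or more. *Ifi209*, of the DNA-binding PYHIN family, was at 3.44, 11.0, 2.21 and 0 in WT and 53.7, 58.5, 21.6 and 88.7 in *mdx5cv* (log2 fold change 3.81 ± 0.63, limma adjusted p = 0.000421). The chemokine gene *Cxcl10* was at 2.29, 0, 2.21 and 3.18 in WT and 31.5, 34.0, 14.4 and 19.98 in *mdx5cv* (log2 fold change 3.26 ± 0.50, limma adjusted p = 0.000264). *Cxcl9*, which encodes a chemokine for the same receptor, was at 3.44, 14.3, 9.95 and 3.18 in WT and 39.8, 61.3, 27.9 and 51.1 in *mdx5cv* (log2 fold change 2.57 ± 0.42, limma adjusted p = 0.000411). All of these were low in WT, and the groups did not overlap. *Slfn8* was at 1.15, 19.7, 11.1 and 22.2 in WT and 52.8, 86.8, 47.7 and 83.1 in *mdx5cv* (log2 fold change 2.65 ± 0.59, limma adjusted p = 0.0031), and *Pml*, which organizes nuclear bodies, was at 58.4 to 93.2 in WT and 122 to 159 in *mdx5cv* (log2 fold change 0.91 ± 0.16, limma adjusted p = 0.00064) and passed the fold threshold without WT replicate 4 (1.02). Of 9 other GBP and IRG genes tested, 2 rose (22.2%, against 10.3% of all genes tested). *Iigp1* was at 164, 141, 163 and 91.1 in WT and 261, 932, 303 and 275 in *mdx5cv* (log2 fold change 1.46 ± 0.34, limma adjusted p = 0.0039). *Irgm2* was at 117, 114, 135 and 130.3 in WT and 422, 732, 366 and 320.4 in *mdx5cv* (log2 fold change 1.81 ± 0.21, limma adjusted p = 2.46e-05). In both, replicate 2 was far above the other *mdx5cv* muscles, which were in turn above WT. *Tgtp2*, which has a near-identical copy in *Tgtp1*, was at 36.0 to 51.6 in WT and 48.2 to 96.2 in *mdx5cv* (log2 fold change 0.53 ± 0.23, limma adjusted p = 0.0769). Counting members and others together, all 17 GBP and IRG genes of the table had their highest *mdx5cv* value in replicate 2.

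Antigen presentation, which interferon gamma induces, moved as a whole list. All 15 genes tested were higher by adjusted p without overlap, and 10 passed the fold threshold. Over all genes 20.9% were higher by adjusted p, 20.3% were above WT without overlap and 10.3% passed the fold threshold. *Ciita*, the master regulator of class II genes, was at 12.6, 21.9, 6.63 and 24.4 in WT and 177, 165, 135 and 261 in *mdx5cv* (log2 fold change 3.52 ± 0.33, limma adjusted p = 6.47e-06). *Cd74*, the invariant chain of class II, was at 139.8 to 358 in WT and 983 to 1692 in *mdx5cv* (log2 fold change 2.53 ± 0.25, limma adjusted p = 7.52e-06). *H2-Ab1* and *H2-Aa*, which encode class II chains, had log2 fold changes of 2.46 ± 0.18, limma adjusted p = 1.22e-06, and 2.40 ± 0.22, limma adjusted p = 5.91e-06. The class I gene *H2-K1* was at 397 to 558 in WT and 891 to 1064 in *mdx5cv* and under the fold threshold (log2 fold change 0.97 ± 0.12, limma adjusted p = 4.34e-05), which it passed when WT replicate 2 (1.02), WT replicate 3 (1.04) or replicate 3 of *mdx5cv* (1.01) was left out. Class II genes are expressed constitutively by antigen-presenting cells. Of the 9 tested negative regulators, 3 rose (33.3%, against 10.3% of all genes tested). *Ptpn6*, a phosphatase of blood cells, was at 10.3, 16.5, 4.42 and 11.7 in WT and 101, 87.7, 72.9 and 125 in *mdx5cv* (log2 fold change 3.15 ± 0.32, limma adjusted p = 1.05e-05). *Socs3*, which blocks JAK kinases, was at 14.9 to 36.0 in WT and 84.6 to 151 in *mdx5cv* (log2 fold change 2.18 ± 0.26, limma adjusted p = 3.19e-05). *Samhd1*, which degrades deoxynucleotides, was at 216 to 249 in WT and 377 to 572 in *mdx5cv* (log2 fold change 1.01 ± 0.14, limma adjusted p = 0.000145), and its call was lost in 5 of 16 alternatives, among them those without WT replicate 2 (0.97), *mdx5cv* replicate 2 (0.92) and *mdx5cv* replicate 4 (0.92). *Usp25* was lower at 1691 to 2142 in WT and 1156 to 1410 in *mdx5cv* and under the fold threshold (log2 fold change -0.54 ± 0.11, limma adjusted p = 0.00153).

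Markers of other cell types moved between the same groups. All 10 macrophage markers rose, against 10.3% of all genes tested (2 of the markers entered the test only through *mdx5cv*). Their summed normalized count was 598 to 918 in WT and 4564 to 10949 in *mdx5cv*. *Lyz2* was at 196, 269, 208 and 299 in WT and 3134, 2453, 2224 and 5328 in *mdx5cv* (log2 fold change 3.69 ± 0.23, limma adjusted p = 4.55e-07), *Csf1r* at 92.8 to 174 in WT and 512 to 1368 in *mdx5cv* (2.56 ± 0.26, limma adjusted p = 9.27e-06) and *Mrc1* at 158 to 217 in WT and 309.8 to 615 in *mdx5cv* (1.15 ± 0.19, limma adjusted p = 0.000401). The macrophage markers were highest in *mdx5cv* replicate 4 in 10 of 10 cases (34.7% of all genes were highest there). All 10 were lower in replicate 2 than the mean of the other 3 *mdx5cv* muscles, by a median of -0.32 on the log2 scale, whereas the members were higher there. In the other muscles the 2 sets had medians of the same sign. These were -0.49 for the markers and -0.57 for the members in replicate 3, -0.04 and -0.31 in replicate 1, and 1.11 and 0.17 in replicate 4. The 8 T and NK cell markers were under the filter, with sums of 2.29 to 4.39 in WT and 21.3 to 58.3 in *mdx5cv*. In replicate 2, 7 of the 8 were higher than the mean of the other *mdx5cv* muscles, by a median of 0.56 on the log2 scale. In replicate 4, where the sum was highest, 6 of the 8 were higher, by a median of 0.83. All 5 B cell markers and all 8 skeletal muscle fiber markers were also higher in replicate 2, by a median of 0.63 and 0.30 on the log2 scale. The 6 neutrophil markers summed to at most 16.0 in any muscle, and *Retnlg* had no read. Of the 5 B cell markers *Ighm* alone passed the filter, and it fell, at 337 to 678 in WT and 144 to 315 in *mdx5cv* (log2 fold change -1.19 ± 0.23, limma adjusted p = 0.0014). *Ighm* made up nearly all of the summed B cell count of 349.5 to 682 in WT and 153 to 326 in *mdx5cv*, and the other 4 markers held few reads and overlapped between groups. Dendritic cell markers summed to 102 to 144 in WT and 132 to 193 in *mdx5cv*, and most of this sum was *Zbtb46*, which did not pass (log2 fold change 0.05 ± 0.15, limma adjusted p = 0.818). Of the 5 under the filter, *Xcr1* (no read in WT and 2.70 to 8.79 in *mdx5cv*), *Clec9a* (0 to 2.29 in WT and 7.20 to 12.8 in *mdx5cv*) and *Flt3* (1.06 to 3.32 in WT and 4.72 to 27.2 in *mdx5cv*) were above WT in every *mdx5cv* muscle. *Siglech* (1.11 to 11.0 in WT and 4.72 to 12.0 in *mdx5cv*) overlapped between groups, as did *Ccr9*. The mean log2 level of the 6 was 1.63 to 2.15 in WT and 2.95 to 4.002 in *mdx5cv*. Of the 6 fibroblast markers 3 rose (50%, against 10.3% of all genes tested). All 6 endothelial markers were lower by adjusted p (20.1% of all genes were), each under the fold threshold, with a median log2 fold change of -0.73. The part of these cells in the values of the members was not tested.

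**Figure D5:**
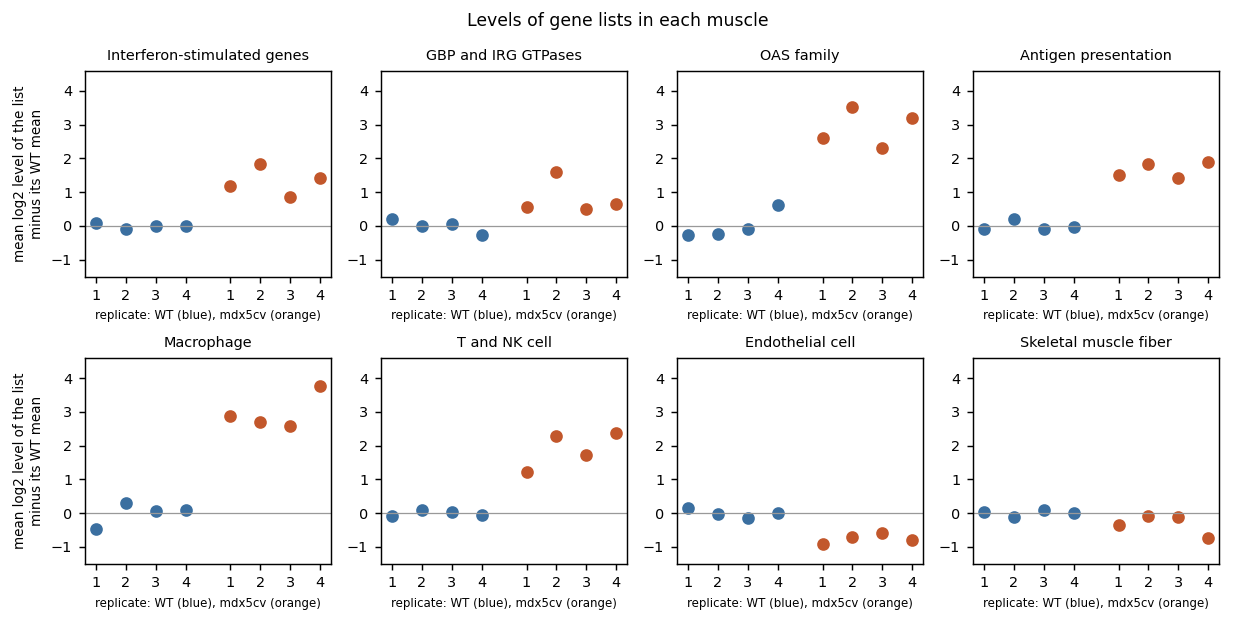
Mean log2(normalized count + 1) of 8 gene lists in each muscle, minus the WT mean of the list (y axis), for WT replicates (blue) and *mdx5cv* replicates (orange). The members and the GBP and IRG GTPases are highest in *mdx5cv* replicate 2, whereas the macrophage markers are highest in replicate 4.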

How the data were processed

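RNA from whole TA muscle was extracted with Trizol, and libraries were made with a stranded total RNA kit. Per the labels, reads were aligned to mm10, and the submitters' processing notes name Trim Galore 0.6.4, STAR 2.6.0c, featureCounts and DESeq2 1.26.0. The kit is reversely stranded per the labels, and whether the counting used strand is not given in the sources used here. The authors deposited normalized counts, a signal in which the reads of a gene are divided by the muscle's size factor. Whole reads were recovered for all values (tolerance 0.01), at 13175524 to 14921057 per muscle.

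Groups were taken from the labels. The test was limma 3.58.1 (R 4.3.3), two-sided, run on log2 of the normalized count plus 1 over the 13677 genes whose average over all muscles reached 10, with the prior variance following the mean level. P-values were adjusted by Benjamini-Hochberg over those genes. The threshold was an adjusted p below 0.05 together with a log2 fold change of 1 or more in either direction. This scale understates the change of low genes. As alternatives, the pseudocount was set to 0.1 or 10, the filter was dropped, muscles were scaled by TMM or to equal totals, the replicate number was added as a block, each muscle was left out, and the recovered reads were tested with edgeR 4.0.16 and with DESeq2 1.42.0. The scripts were tested on simulated data. Exon lengths and coordinates came from GENCODE M21 by gene ID (55141 of 55401 IDs matched with versions ignored). Promoters came from RefSeq on GRCm38.p6. No protein sequence was used here.

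The members and lists were chosen with earlier results of these data known. All 37 members are named. Of each other list, at most the 4 largest called changes without overlap, the closest gene not called, and *Ifnar1*, *Ifnar2*, *Ifngr1*, *Ifngr2*, *Ifnb1*, *Ifng* and *Irf3* are named, and of marker lists up to 3 genes with the highest counts. A gene that this rule also names is not reported here. *Ifne*, *Ifit3b*, *Cxcl11*, *Tgtp1*, *Retnlg*, *Xcr1*, *Clec9a* and *Ccr9* were named after their values were seen.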

Additional observations from a re-analysis of the deposited data

Results flagged for a closer look

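Of 122 sets of 4 muscles (members, lists and named genes within a group), 5 had a muscle whose gap to the nearest other muscle took up most of the range, by Dixon's 95% critical value, and chance alone would give about 6.1. In 4 of the 5 the muscle was *mdx5cv* replicate 2. *Gbp7* was at 8.32 on the log2(normalized count + 1) scale there, against 7.38 to 7.46 in the other *mdx5cv* muscles. *Irgm1* was at 8.61 there, against 7.48 to 7.63. The mean log2 level of the 6 GBP and IRG members was 8.09 there, against 7.02 to 7.14. For the 11 other GBP and IRG genes the mean was 6.68 there, against 5.53 to 5.66. These 4 values are not independent, since they share the muscle and the gene family. The mean of the fibroblast markers was 9.62 in WT replicate 2, against 9.14 to 9.21 in the other WT muscles.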

How the results depend on the processing

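The number of members that rose was 17 to 29 over 16 alternatives and 17 to 23 when 1 muscle was left out, with 17 without *mdx5cv* replicate 2, and no alternative called a member lower. Of the 21 members that rose, 15 kept the call in every alternative, while *Ifit1*, *Trim25*, *Mx2*, *Gbp2*, *Igtp* and *Parp14* lost it in at least 1, and 8 others gained one in at least 1. Among related genes 1 was called lower without the filter and with DESeq2 (*Cxcl11* in both, named after its values were seen), against 0. Over all genes, 2202 were higher without the filter, where more genes were tested, and equal totals gave 2256 higher and 210 lower, against 1414 and 447. Signs changed for results close to 0. *Ifi35* was at 0.22 with equal totals and between -0.26 (without *mdx5cv* replicate 2) and 0.04675 (without *mdx5cv* replicate 4) with 1 muscle left out. *Ifngr2* was at 0.28 with equal totals. *Irf3* was at -0.01475 with TMM factors, -0.008246 with edgeR, -0.01228 with DESeq2 and between -0.09246 (without WT replicate 1) and 0.09478 (without WT replicate 2) with 1 muscle left out. The cause was not tested.

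The labels do not say that the replicate numbers pair the muscles, and the correlation of same-numbered deviations was 0.05, 0.03, 0.07 and 0.15. With the replicate number as a block, 21 members and 34 related genes were higher, and 1428 genes were higher and 454 lower over all genes. *Irgm1* and *Tgtp2* passed by adjusted p with the block (limma adjusted p = 0.00983 and 0.0471).

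Low counts limited *Isg15*, the ligands and the lymphocyte markers. Reads of near-identical GBP, IRG, OAS and IFIT genes are uncertain, and 14 members have exons that overlap another gene. Several borderline calls depended on 1 muscle. Calls of members were lost 6 times on leaving out an *mdx5cv* muscle (replicate 2 or 4). They were lost 4 times on leaving out a WT muscle (replicate 1, 2 or 4).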
